A study of Mus musculus with 6 samples.

Results

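The Ccdc genes carry a name that stands for nothing more than a coiled-coil domain, and they were followed here in the ependymal layer of FoxJ1 null and wildtype mouse brains. Members were all genes whose array symbol is Ccdc plus a number, with or without a letter, on probe sets that name 1 gene. Ccdc39, Ccdc40, Ccdc65, Ccdc114, Ccdc146 and Ccdc151 were set aside by the rule. This left 124 genes of the 19938 measured, covered by 157 probe sets. The brightest probe set, by its mean over the arrays, gave a gene's value. The rule itself goes by symbol and uses no measured value.

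A coiled coil forms when helices wind around each other, which lets proteins form rods, rulers and scaffolds. Some Ccdc proteins sit in the axoneme, the microtubule core of a motile cilium, and others in centrioles, sperm, mitochondria, endosomes or the nucleus, so the shared name marks a shape and not a function. Ependymal cells line the brain ventricles and bear tufts of motile cilia that move cerebrospinal fluid. Foxj1 encodes a forkhead transcription factor that switches on genes for motile cilia.

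The samples were 3 FoxJ1 null arrays and 3 wildtype arrays, with 1 array of each genotype at postnatal days 1, 7 and 14. All brains of both genotypes carried the FoxJ1-EGFP reporter, and the EGFP-positive ependymal domain was cut out by laser capture. RNA was amplified, labelled with biotin and hybridised to 1-colour Affymetrix arrays, and levels are given as log2 values after RMA. It is not stated whether each array holds 1 animal or a pool, nor how the null allele was made. With 1 array per genotype and age, the 3 ages served as the replicates of the genotype comparison. Its p-values rest on how the null minus wildtype difference varied over the ages, together with a prior taken from all genes. They do not measure the spread between animals.

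Array medians lay between 7.72 and 7.81. Foxj1 itself was at 6.89 to 6.95 on the null arrays and 7.24 to 7.72 on the wildtype arrays, a difference of -0.63 with an adjusted p of 0.0573 (limma). The position of its probes relative to the deleted sequence is not known here, so this does not check the labels fully. Xist was at 12.35 on the null day 7 array and 12.40 on the wildtype day 1 array, against 5.37 to 5.83 elsewhere. The Y-linked Eif2s3y, Kdm5d and Uty were at 4.53 to 5.21 on those 2 arrays, against 8.94 to 10.72 on the others. Those 2 arrays therefore had the pattern of female samples and the others that of male samples, though the labels give no sex. At days 1 and 7 the null and wildtype arrays thus differed in sex pattern, and at day 14 both had the male pattern. Of the ependymal markers, 8 of 8 were measured, 2 fell in the null (Tmem212 and Dynlrb2), 6 had a negative difference and the median difference was -0.35. The mean log2 level of the 8 was 8.18 to 8.40 on null arrays and 8.73 to 8.89 on wildtype arrays, which did not overlap. Their log2 summed level, to which Vim and Cd24a add most, was 12.87 to 13.16 on null arrays and 12.71 to 13.47 on wildtype arrays, which did. The part of these markers in the results below was not tested. Of the choroid plexus markers, 10 of 12 were measured, 10 had a negative difference and 3 fell (Ttr, Folr1 and Cldn2). Their log2 summed level was 13.28 to 13.55 on null arrays and 14.61 to 14.65 on wildtype arrays, and Ttr alone was at 12.87 to 13.24 on null arrays and 14.35 to 14.37 on wildtype arrays. The 10 markers had median differences of -0.86 (day 1), -0.17 (day 7) and -0.81 (day 14). Their part in the results below was not tested. RMA values have no zero, so no marker can be called absent. In bulk tissue, fewer cells of a type and less RNA per cell cannot be told apart.

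The promoters of members that fell in the null are printed because the factor that was removed, a forkhead protein, binds DNA. Of the motifs marked, only the forkhead core is that of its family, and the X-box is that of RFX factors. RefSeq promoter windows of 300 bases (250 before to 50 after the gene start, build GRCm38.p6) matched 100 of the 124 genes. Of the 5 genes that fell, Ccdc153, Ccdc170 and Ccdc113 had a window. Ccdc180 is shown as well, since many of its probe sets fell. All 4 are read on the plus strand, and capitals mark the forkhead core GTAAACA, the X-box half-site GTTGCC (each on either strand) and the full RFX X-box. The windows are chr9:44240427-44240726 for Ccdc153, chr10:4482265-4482564 for Ccdc170, chr8:95533850-95534149 for Ccdc113 and chr4:45890053-45890352 for Ccdc180.
Ccdc153: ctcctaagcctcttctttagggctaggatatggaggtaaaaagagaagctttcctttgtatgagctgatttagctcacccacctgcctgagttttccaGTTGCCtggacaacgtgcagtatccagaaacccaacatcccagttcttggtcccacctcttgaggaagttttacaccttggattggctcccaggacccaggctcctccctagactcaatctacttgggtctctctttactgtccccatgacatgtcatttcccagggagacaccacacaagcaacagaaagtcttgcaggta
Ccdc170: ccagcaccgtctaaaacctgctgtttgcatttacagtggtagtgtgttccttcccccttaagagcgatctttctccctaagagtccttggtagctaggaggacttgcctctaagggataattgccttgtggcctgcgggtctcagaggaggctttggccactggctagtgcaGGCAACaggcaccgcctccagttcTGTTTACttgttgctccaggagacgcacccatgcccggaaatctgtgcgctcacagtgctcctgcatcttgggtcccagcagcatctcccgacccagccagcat
Ccdc113: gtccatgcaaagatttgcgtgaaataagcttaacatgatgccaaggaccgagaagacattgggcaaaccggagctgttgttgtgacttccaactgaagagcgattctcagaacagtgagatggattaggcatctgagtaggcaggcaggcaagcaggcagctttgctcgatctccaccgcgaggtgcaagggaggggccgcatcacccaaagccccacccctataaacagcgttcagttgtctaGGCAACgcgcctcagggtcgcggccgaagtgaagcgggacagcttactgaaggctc
Ccdc180: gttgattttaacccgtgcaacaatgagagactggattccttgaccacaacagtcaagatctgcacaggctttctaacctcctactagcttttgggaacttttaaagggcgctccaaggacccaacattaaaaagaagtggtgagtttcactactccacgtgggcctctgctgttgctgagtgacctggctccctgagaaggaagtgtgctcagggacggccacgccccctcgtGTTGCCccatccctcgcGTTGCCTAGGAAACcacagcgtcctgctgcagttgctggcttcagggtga

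The X-box half-site was in the windows of 3 of the 3 genes that fell, in 24 of the 97 other Ccdc genes with a window (24.7%) and in 14.1% of all genes with a window. It began 152 bases before the start of Ccdc153, 78 before that of Ccdc170 and 6 before that of Ccdc113. The forkhead core was in 1 of the 3, Ccdc170, where it began 54 bases before the start on the minus strand. It was in 4 of the 97 others (4.12%) and in 4.05% of all genes with a window. A second window of Ccdc170 held none of the motifs. The full RFX X-box, which overlaps the half-site, was in 0 of the 3, in 4 of the 97 others (4.12%: Ccdc96, Ccdc60, Ccdc180 and Ccdc175) and in 0.903% of all genes with a window. A match describes the letters in the window and was not tested as a binding site. No window was given for Ccdc162 and Ccdc81.

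In the FoxJ1 null ependymal layer, 5 of the 124 Ccdc genes fell. Ccdc153, Ccdc170, Ccdc162, Ccdc81 and Ccdc113 were 1.61- to 2.05-fold lower, averaged over the 3 ages, at an adjusted p under 0.05 in limma with genotype and age in the model. These 5 are 4.03% of the members, against 0.667% of all genes tested that were lower in the null. No Ccdc gene was called higher (0 of 124, limma; 1 at an unadjusted p under 0.05), against 0.00502% of all genes. The remaining 119 members had differences of -0.53 to 0.25, and 95 of them lay within 0.2 of 0.

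Ccdc153, a marker of ependymal cells in single-cell surveys, had log2 levels of 7.46 (day 1), 7.51 (day 7) and 7.34 (day 14) in the null, against 8.31, 8.62 and 8.47 on the wildtype arrays. Each null array was below each wildtype array. The mean difference was -1.03 ± 0.16 (SD over 3 ages), 2.05-fold lower, with an adjusted p of 0.00151 (limma).

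Ccdc170, which in human cells is linked to the Golgi and to microtubules, had 6.69, 6.74 and 6.57 on the null arrays, against 7.60, 7.68 and 7.59 on the wildtype arrays. The groups did not overlap, and the differences at the 3 ages were close to each other. The mean difference was -0.95 ± 0.06 (SD over 3 ages), with an adjusted p of 0.00161 (limma).

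Ccdc162 had 6.37, 6.75 and 6.83 on the null arrays and 7.29, 7.35 and 7.67 on the wildtype arrays. The groups did not overlap. It fell by 0.79 ± 0.16 (SD over 3 ages), with an adjusted p of 0.00821 (limma). Its second probe set, tested among single probe sets, fell by 0.73 with an adjusted p of 0.0371.

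Ccdc81 had 6.31, 6.23 and 6.12 on the null arrays and 6.84, 7.28 and 7.15 on the wildtype arrays. The smallest gap was at day 1, and the groups did not overlap. It fell by 0.87 ± 0.30 (SD over 3 ages), with an adjusted p of 0.0121 (limma), or 0.0543 without the day 7 arrays.

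Ccdc113, whose relative in the ciliate Tetrahymena forms a complex with that of Ccdc96 at the base of a radial spoke, had 6.70, 6.94 and 6.69 on the null arrays and 7.66, 7.50 and 7.23 on the wildtype arrays. Here the gap was widest at day 1, and the groups did not overlap. It fell by 0.68 ± 0.23 (SD over 3 ages), with an adjusted p of 0.0312 (limma). The adjusted p was 0.0681 without the day 1 arrays and 0.0522 without the day 7 arrays. Without the null day 7 and wildtype day 1 arrays, and with day as a linear term, Ccdc153, Ccdc170 and Ccdc81 passed while Ccdc162 had an adjusted p of 0.0789 and Ccdc113 one of 0.1999.

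**Figure D1:**
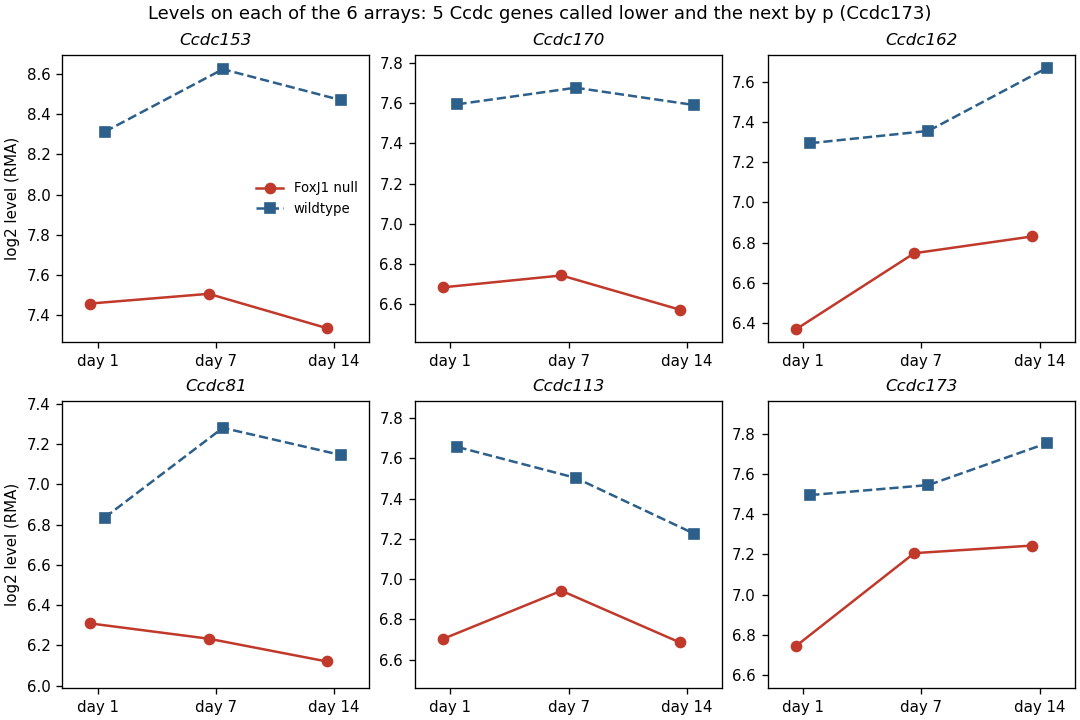
Log2 RMA level (y axis, of the same span in each panel but centred for each gene) by postnatal day (x axis) for the 5 Ccdc genes that fell and for Ccdc173, the next by p. Circles on solid lines are FoxJ1 null arrays and squares on dashed lines wildtype arrays, 1 array a point. In each panel the 3 null arrays lie below the 3 wildtype arrays.

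In 15 of the 124 Ccdc genes (12.1%) the 3 null arrays were all below the 3 wildtype arrays, against 4.39% of all genes; the plot of levels by array shows 6 of them. Of these 15, 5 passed the test and 10 did not. The opposite, with all null arrays above, held for 2 members (1.61%), Ccdc152 and Ccdc175, against 1.76% of all genes. A difference below 0 at each of the 3 ages was found in 31 members (25.0%), against 15.9% of all genes. A difference above 0 at each age was found in 14 members (11.3%), against 7.90% of all genes.

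The median difference of the 124 genes was -0.05, against -0.01 for all genes, and 74 of them (59.7%) were below 0, against 54.8% of all genes. From day 1 through day 7 to day 14, the members' medians were -0.09, -0.04 and -0.08, against 0.03, -0.06 and -0.02 for all genes. Single ages have 1 array per genotype and no test.

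**Figure D2:**
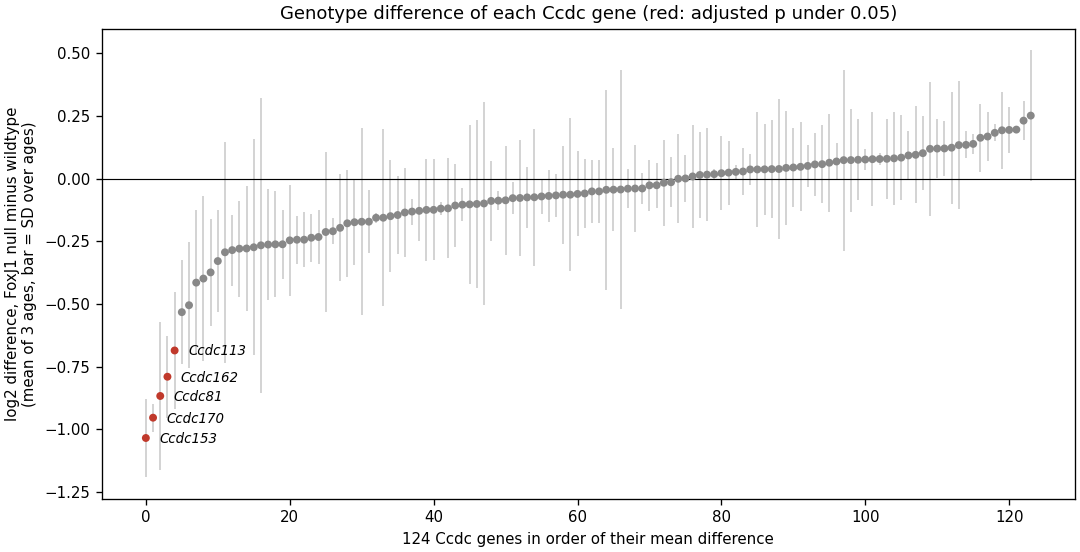
Difference in log2 level, FoxJ1 null minus wildtype (y axis), of each of the 124 Ccdc genes in rank order (x axis). Points are means over the 3 ages, bars are the SD over ages, and red points passed at an adjusted p under 0.05. The 5 red genes lie between -1.03 and -0.68, and the others between -0.53 and 0.25.

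Sorted by known role, the members of the motile cilium axoneme list held 2 of the 5 genes that fell. Of 16 listed symbols, 7 were measured: 2 fell (Ccdc153 and Ccdc113), none of the 7 rose, and 5 had a difference below 0. Of all genes, 0.667% were called lower and 54.8% had a difference below 0. The median difference of the 7 was -0.50, against -0.01 for all genes. The list was drawn up with earlier results of these data known, so its median describes these genes and supports no wider statement.

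Ccdc173, a protein of the inner wall of ciliary microtubules, had 6.75, 7.21 and 7.24 on the null arrays and 7.49, 7.54 and 7.75 on the wildtype arrays. The groups did not overlap, but the difference of -0.53 ± 0.21 (SD over 3 ages) did not pass, with an adjusted p of 0.110 (limma). Ccdc96, the partner of Ccdc113 in Tetrahymena, had 6.87, 6.88 and 6.83 on the null arrays and 7.33, 7.65 and 7.11 on the wildtype arrays. These groups did not overlap either, and the difference of -0.50 ± 0.25 (SD over 3 ages) had an adjusted p of 0.174 (limma).

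Ccdc189, which mouse sperm need for their flagella, had 6.94, 7.51 and 7.76 on the null arrays and 7.69, 7.87 and 7.85 on the wildtype arrays. The null day 14 array lay above the wildtype day 1 array, so the groups overlapped. The difference was -0.40 ± 0.33 (SD over 3 ages), with an adjusted p of 0.549 (limma). Ccdc63, also a gene of the sperm flagellum, and Ccdc105, a tektin-like protein of sperm, had differences of 0.06 and 0.03. Those 2 members of the list thus lay with the bulk of the family.

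The other role lists held no gene that passed for genotype. In the list for the centriole, its satellites and the basal body, 15 of 18 symbols were measured, with a median of 0.04. Of these 15, 7 had a difference below 0, against 54.8% of all genes. Ccdc13, a satellite protein, and Ccdc28b, a modifier of Bardet-Biedl syndrome, each had null arrays below all wildtype arrays and a difference of -0.24, with adjusted p of 0.800 and 0.825 (limma). Ccdc78, which acts where multiciliated cells amplify centrioles, had a difference of -0.06. Ccdc68, a protein of the appendages of the mother centriole, had 6.01, 5.85 and 5.78 on the null arrays and 5.79, 5.67 and 5.59 on the wildtype arrays. Its groups overlapped, and the difference of 0.20 ± 0.02 (SD over 3 ages) had an adjusted p of 0.928 (limma).

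In the list of sperm or meiosis genes, 11 of 15 were measured, with a median of 0.02 and a range of -0.25 (Ccdc181) to 0.14 (Ccdc38). In the secreted, membrane and trafficking list, 8 of 10 were measured, with a median of -0.08. Its lowest member was Ccdc91, a partner of Golgi sorting adaptors, at -0.26, and its highest was Ccdc115, at 0.16. Ccdc22 and Ccdc93, subunits of one endosomal recycling complex, were at -0.10 and -0.07.

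In the cytoskeleton and migration list, 10 of 12 were measured, with a median of 0.05. Ccdc88c (Daple) and Ccdc85c, tied to hydrocephalus in human and in mouse, had differences of 0.14 and 0.13, and Ccdc88a (Girdin), an actin-binding relative of Ccdc88c, had -0.12. Ccdc6, known as a fusion partner of RET in human thyroid cancer, had the highest difference of all 124 members. It had 9.66, 9.22 and 9.25 on the null arrays and 9.20, 9.26 and 8.91 on the wildtype arrays. The groups overlapped, and 0.25 ± 0.26 (SD over 3 ages) had an adjusted p of 0.889 (limma).

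In the mitochondria list, 4 of 8 were measured, with a median of -0.09, and in the list for RNA, ribosome and nucleus 8 of 15, with a range of -0.13 (Ccdc124, a ribosome-binding protein) to 0.12 (Ccdc9 and Ccdc86). The 61 members in no role list had a median of -0.07 and held the other 3 genes that fell, Ccdc170, Ccdc162 and Ccdc81. Their next by p were Ccdc150 at -0.41, Ccdc191 at -0.37 and Ccdc60 at -0.33, with adjusted p of 0.424, 0.440 and 0.593 (limma). Ccdc152, at 3.86 to 3.92 on null arrays and 3.55 to 3.72 on wildtype arrays, had a difference of 0.23 and an adjusted p of 0.831.

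**Figure D3:**
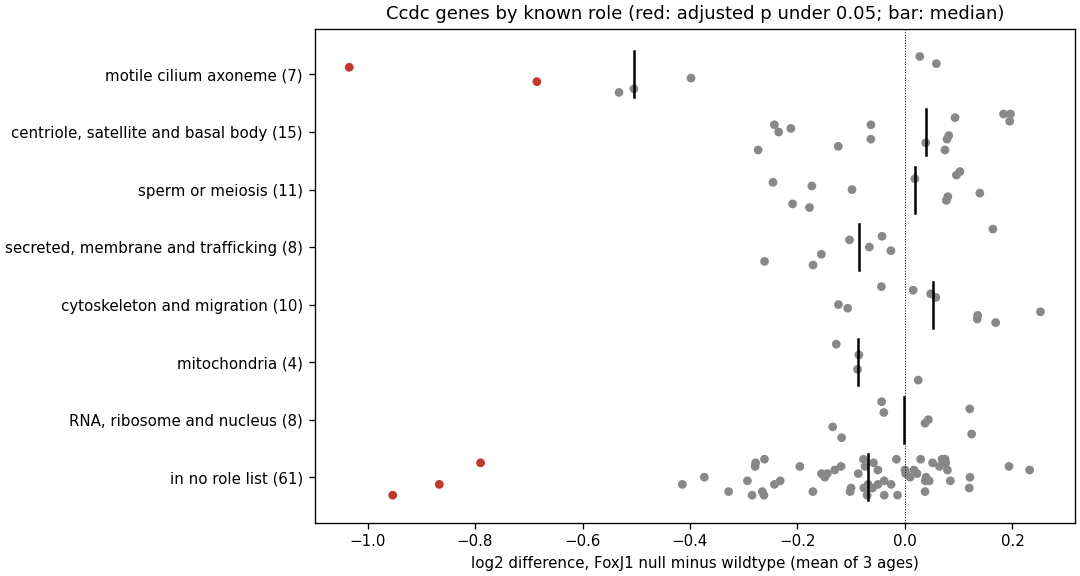
Difference in log2 level, FoxJ1 null minus wildtype (x axis, mean of 3 ages), of the 124 Ccdc genes grouped by known role (y axis, with the number measured). Points are genes, red ones passed at an adjusted p under 0.05, and bars are medians. The axoneme list has a median of -0.50, and the other groups lie between -0.09 and 0.05.

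The plot by role shows the red genes in 2 groups only, the axoneme list and the genes in no role list. The 5 genes that fell were also dim: all 5 had a mean level under the median of all genes, and 4 of them were in the lowest tertile. With that tertile left out of the fit, 82 members were tested and 1 fell, Ccdc153. Among the 49 members at or above that median, differences ran from -0.27 to 0.25. At the level of the single gene, 17 members that did not pass had an unadjusted p under 0.05, of which 16 were below 0. With the genes that passed, 21 members (16.9%) were lower and 1 (0.806%) higher at that level, against 4.59% and 1.32% of all genes.

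Ccdc180 showed how far the choice of probe set mattered. Its brightest probe set, which stood for the gene, had 8.48, 8.45 and 8.41 on the null arrays and 8.76, 8.43 and 8.58 on the wildtype arrays. The groups overlapped, and the difference of -0.14 ± 0.16 (SD over 3 ages) did not pass, with an adjusted p of 1.00 (limma). The gene had 27 probe sets in all, and 15 of these fell when each was tested among all single probe sets. Another 12 did not pass and 0 rose (limma). The 15 that fell were dim, with mean levels of 3.62 to 7.16. All brighter probe sets of the gene, at 7.21 to 8.52, did not pass, nor did some of the dim ones. Of all 1-symbol probe sets, 1.09% were called lower in this way, and of the 157 belonging to Ccdc genes 21 were (13.4%). Of those 21, 15 belong to Ccdc180 alone, so the share does not describe the family. The probe sets of Ccdc180 measure 1 gene and are not replicates of the condition.

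The probe set with the largest difference, 10504638, had 4.59, 4.42 and 4.66 on the null arrays and 6.32, 6.44 and 6.56 on the wildtype arrays. The groups lay far apart, with a difference of -1.89 ± 0.15 (SD over 3 ages), 3.69-fold lower, and an adjusted p of 2.68e-05 (limma). Over the 27 probe sets the differences ran from -1.89 to -0.14 with a median of -0.66. All 27 were below 0, 25 of them at each age, and in 24 the null arrays were all below the wildtype arrays. These are repeated readings of 1 gene on the same 6 arrays, and no such shares were computed over all probe sets. Of all genes, 54.8% were below 0, 15.9% were so at each age, and 4.39% had all null arrays below the wildtype arrays. With the mean of its probe sets as the gene's value, Ccdc180 fell by 0.78, with an adjusted p of 0.00825 (limma). The comparison over the probe sets of Ccdc180 was chosen after the data were seen.

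**Figure D4:**
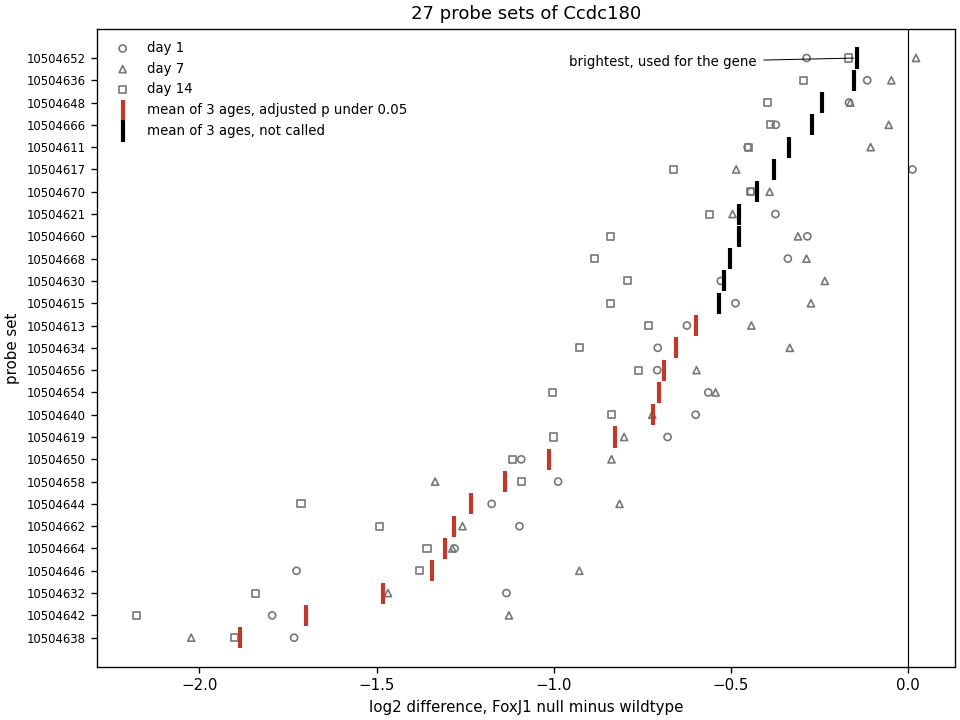
Difference in log2 level, FoxJ1 null minus wildtype (x axis), for the 27 probe sets of Ccdc180 (y axis). Open symbols are the 3 ages and bars their mean, red where the adjusted p was under 0.05. The 15 red probe sets lie between -1.89 and -0.60, and the brightest one is at -0.14.

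The plot of these probe sets shows the one that stood for the gene at the end nearest 0. The other members with over 1 probe set were Ccdc162, Ccdc141, Ccdc12 and Ccdc149. For Ccdc12 and Ccdc149 the 2 probe sets of each gene had opposite signs and none passed (-0.04 and 0.06 for Ccdc12, -0.08 and 0.08 for Ccdc149). Another 4 probe sets name a Ccdc gene among several symbols and were not used.

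Between postnatal days 1 and 14, while ependymal cilia grow out, 8 of the 124 Ccdc genes changed in level averaged over both genotypes. Ccdc141, Ccdc28a and Ccdc85a rose, and Ccdc120, Ccdc115, Ccdc15, Ccdc34 and Ccdc112 fell. The 3 that rose are 2.42% of the members, against 7.50% of all genes. The 5 that fell are 4.03%, against 6.29% of all genes. All 8 had the same sign in both genotypes, which a call on the average of both genotypes favours from the start. Of the 8, 0 passed for genotype in limma (1 of the 8, Ccdc34, had an unadjusted p under 0.05). Each age had 2 arrays, 1 of each genotype. The SE and p-values with age rest on how the change differed between the genotypes, together with the prior. They do not measure the spread between animals either.

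Ccdc141, which acts in neuronal migration, had 8.64, 9.04 and 9.39 at days 1, 7 and 14 in the null and 8.77, 8.65 and 9.78 on the wildtype arrays. Both day 14 arrays lay above both day 1 arrays, and the difference of day 14 against day 1 was 0.89 ± 0.18 (SE), with an adjusted p of 0.0103 (limma). Its 5 probe sets rose by 0.77 to 0.95. It was the only member to pass between days 7 and 14 (0.75, adjusted p 0.0484), and 0 members passed between days 1 and 7 in limma.

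Ccdc28a had 7.25, 7.79 and 8.15 on the null arrays and 7.41, 7.54 and 8.02 on the wildtype arrays, and rose by 0.75 ± 0.14 (SE) with an adjusted p of 0.00684 (limma). Ccdc85a, a relative of the junction protein Ccdc85c, had 9.32, 9.89 and 10.07 on the null arrays and 9.62, 9.92 and 10.06 on the wildtype arrays. Both genotypes climbed at each step in these 2 genes. Ccdc85a rose by 0.60 ± 0.13 (SE), with an adjusted p of 0.0160 (limma).

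Of the genes that rose with age, 2 (Ccdc141 and Ccdc85a) are among the 10 measured members of the cytoskeleton and migration list, beside the 7.50% of all genes that rose. Of those that fell, 3 are among the 15 measured members of the centriole list, beside the 6.29% of all genes that fell. Both lists were drawn up with earlier results of these data known and were not tested as lists. Ccdc120, a protein of the appendages of the mother centriole, had 9.14, 8.60 and 8.28 on the null arrays and 8.85, 8.61 and 8.33 on the wildtype arrays, and fell by 0.69 ± 0.13 (SE) with an adjusted p of 0.00957 (limma). Ccdc15, which in human cells lies inside the centriole, had 8.13, 7.95 and 7.59 on the null arrays and 8.03, 7.67 and 7.40 on the wildtype arrays, and fell by 0.59 ± 0.12 (SE) with an adjusted p of 0.0131 (limma). In both genes each step in age was downward in both genotypes. Ccdc112, a satellite protein, had 10.06, 9.86 and 9.54 on the null arrays and 9.84, 9.70 and 9.37 on the wildtype arrays, and fell by 0.49 ± 0.12 (SE) with an adjusted p of 0.0255 (limma).

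Ccdc115, an assembly factor of the proton pump V-ATPase in human cells, had 8.51, 8.01 and 7.82 on the null arrays and 8.24, 8.004 and 7.61 on the wildtype arrays. It fell by 0.65 ± 0.13 (SE), with an adjusted p of 0.00966 (limma), and day 14 was below day 1 in both genotypes. Ccdc34, needed for sperm flagella in mice, had 9.51, 9.72 and 9.07 on the null arrays and 9.98, 9.75 and 9.37 on the wildtype arrays. The null day 7 array stood above the null day 1 array, and the fall of 0.52 ± 0.14 (SE) had an adjusted p of 0.0364 (limma). Its adjusted p was 0.0605 with Xist as a covariate, 0.0914 with genotype left out, 0.203 without the null day 14 array, 0.188 without the wildtype day 1 array and 0.112 without the wildtype day 14 array.

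**Figure D5:**
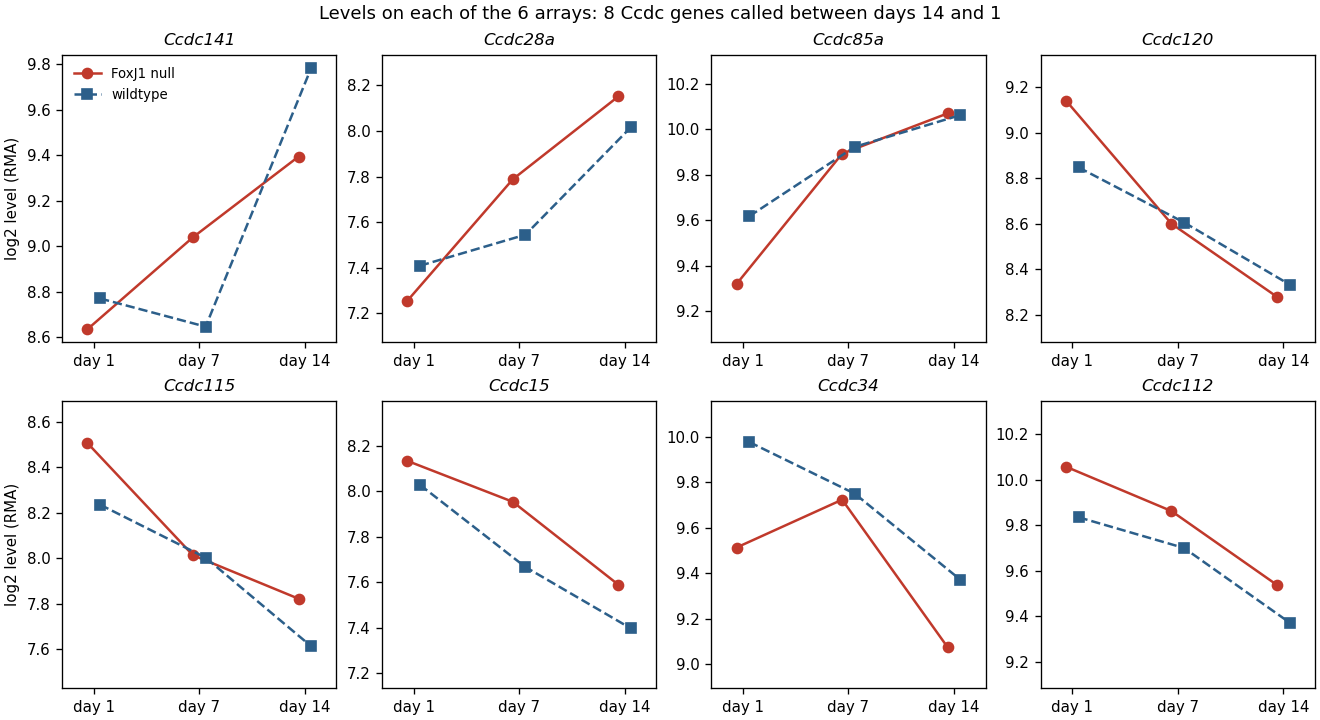
Log2 RMA level (y axis, of the same span in each panel but centred for each gene) by postnatal day (x axis) for the 8 Ccdc genes that changed between days 1 and 14. Circles on solid lines are FoxJ1 null arrays and squares on dashed lines wildtype arrays, 1 array a point. Ccdc141, Ccdc28a and Ccdc85a end higher at day 14 than at day 1 in both genotypes, and the other 5 end lower.

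Other cell types moved with age beside the genes in the plot of levels by day. Of the markers of dividing cells, 4 of 4 measured fell between days 1 and 14, with log2 summed levels of 10.83, 11.07 and 9.70 at days 1, 7 and 14 in the null and 11.50, 11.04 and 9.72 on the wildtype arrays. Of the neuroblast markers, 6 of 7 fell, while 5 of 5 measured oligodendrocyte markers, 4 of 7 microglia markers, 4 of 6 neuron markers and 4 of 6 astrocyte markers rose. The astrocyte marker Aldh1l1 fell, by 0.68 with an adjusted p of 0.00888 (limma). The part of these in the Ccdc changes with age was not tested. Single arrays decided some of the calls with age. Ccdc85a, Ccdc120, Ccdc115 and Ccdc112 did not pass without the null day 1 array (2 rose and 3 fell in all), nor did Ccdc85a, Ccdc120, Ccdc15, Ccdc34 and Ccdc112 without the null day 14 array (2 rose, 1 fell). Without the wildtype day 1 array Ccdc15, Ccdc34 and Ccdc112 did not pass, and 10 members rose and 2 fell. Without the wildtype day 14 array Ccdc141, Ccdc115, Ccdc15, Ccdc34 and Ccdc112 did not pass, and 4 rose and 1 fell. Without both day 7 arrays 7 rose and 6 fell, and with Xist as a covariate 9 rose and 7 fell.

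No Ccdc gene passed the test of whether its level moved with day differently in the 2 genotypes. The slope test called 0 of 124 members higher and 0 lower (limma), against 0% of all genes in either direction. At an unadjusted p under 0.05 there were 3 members higher (2.42%) and 0 lower, against 1.99% and 0.998% of all genes. The 3 members with the smallest p were Ccdc80, Ccdc190 and Ccdc189, each with an adjusted p of 1.00. Ccdc80, a secreted matrix protein, had 9.62, 9.79 and 10.22 on the null arrays and 10.08, 9.94 and 9.75 on the wildtype arrays, so its lines crossed. Its slope difference came to 0.94 over 13 days, with an unadjusted p of 0.00629 in limma. Ccdc190 had 8.94, 9.91 and 9.98 on the null arrays and 9.85, 10.06 and 9.73 on the wildtype arrays, and its value was 1.15. That value was 0.25 without the null day 1 array, 2.25 without the null day 14 array and 0.55 without the wildtype day 14 array.

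The 6 Ccdc genes set aside by the rule are mostly known as parts of the axoneme or its dynein docking sites. Their differences ran from -1.35 (Ccdc146) to -0.40 (Ccdc151), with a median of -0.56. Of the 6, 3 fell, against 0.667% of all genes. The lowest member was Ccdc153, at -1.03. The authors' deposited list of 52 probe sets named none of the Ccdc genes.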

How the data were processed

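The authors deposited log2 levels of 35557 probe sets on 6 arrays, with RMA named in the submitters' processing notes; the software version and genome build are not given in the sources used here. The authors also deposited intensity on a linear scale for a list of 52 probe sets, equal to 2 to the power of the log2 values within 3.37e-06. Of the probe sets, 21789 had 1 symbol, 1621 several and 12147 none, and only the first were used. The brightest probe set stood for each of 19938 genes, with no filter on dim genes.

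All genes were fitted with limma 3.58.1 in R 4.3.3 (lmFit and eBayes, 2-sided), using genotype plus a 3-level factor for age (2 residual and 7.51 prior degrees of freedom); slopes used genotype, day and their product. Adjusted p is by Benjamini-Hochberg over all genes, with a threshold of 0.05. The code was tested on simulated data. Tables and figures used matplotlib 3.10.9, pandas 2.3.3, numpy 2.4.6 and Python 3.11.15. Promoter windows are from RefSeq.

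The members and lists were chosen with earlier results of these data known. Named were members that passed, the next 6 by p, the extremes that did not pass, the 3 smallest slope p, role list members and members whose probe sets disagreed. Alternatives changed normalization, dim-gene filter, probe set rule, prior, age and genotype terms, an Xist covariate and the arrays used; those for Ccdc180 were added after seeing the data. The number of arrays limits the precision.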

Additional observations from a re-analysis of the deposited data

Results flagged for a closer look

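Outside the probe set that stood for the gene, 15 probe sets of Ccdc180 were lower in the FoxJ1 null arrays than in the wildtype arrays at an adjusted p under 0.05 (limma, each probe set on its own). They were singled out because they carry a signal in data that the gene-level comparison did not use. All 15 were dim, with mean levels of 7.16 or less, and the brighter probe sets of the gene did not pass. With 3 arrays per genotype, no search for stray arrays was made.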

How the results depend on the processing

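The number of Ccdc genes called lower in the null was 5. It was 1 (Ccdc153) without the lowest tertile of genes, which tests 82 members, 0 without genes below the median level, which tests 49, 2 with age left out of the model, 3 without the 2 arrays of high Xist with day linear, and 3 to 5 when the arrays of 1 age were left out. The mean of a gene's probe sets, and each probe set on its own, gave 6, with Ccdc180 added. Ccdc153 and Ccdc170 passed in each of the 14 and 13 alternatives that tested them. The members' median difference was -0.026 after centring each array on its median, with 0.015 for all genes. The number called between days 1 and 14 was 8; it was 16 with Xist as a covariate (9 higher, 7 lower) and 3 to 13 when arrays were left out, with 13 without both day 7 arrays and 12 (10 higher, 2 lower) without the wildtype day 1 array. Ccdc28a passed in 14 of 14 alternatives. The slope count was 0 in 15 of 15, and 10 to 16 probe sets of Ccdc180 were called in 11. Signs turned for Ccdc12, to 0.0091 with the mean of probe sets and 0.042 without the day 14 arrays (-0.12 without those of day 1), and for Ccdc149, to 0.031 without the 2 high-Xist arrays. Causes were not tested beyond the fewer genes or arrays used. Dim probe sets limit what the levels show, and no background signal was given with the RMA values.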
